A study of [Candida] boidinii with 12 samples.

Results

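LA001-14 was compared with the wild type it was built from while both grew on glucose, by RNA sequencing of Candida boidinii, a yeast that can live on methanol as well as on sugar. LA001-14 carries a lactate dehydrogenase gene written as PENO1-BtL-LDH-TTEF2 and a kanamycin resistance gene written as PTDH3-KanR-TTEF2, both at random chromosomal positions of strain CICC#33029, and it is described as an L-lactic acid producer. The wild type, CICC#33029 itself, carries neither. Cells of both strains came from YPD medium holding glucose at 2% (w/v), taken at 6 h as 3 biological replicates per strain (LA-Glu and WT-Glu). Thus 6 of the 12 libraries of the series make up the comparison, chosen by their labels alone. The other 6 libraries hold LA001-14 and wild type after 6 h in YPM medium with 2% (w/v) methanol (LA-Met and WT-Met). These libraries serve here as a second reading of the same genes outside the glucose contrast. They did enter the choice of genes tested, the scaling and the estimate of spread.

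On glucose, yeasts carry sugar through glycolysis to pyruvate. Lactate dehydrogenase reduces pyruvate to lactate and oxidises NADH, in place of the route to ethanol through pyruvate decarboxylase and alcohol dehydrogenase. In Saccharomyces cerevisiae ENO1 encodes enolase, TDH3 glyceraldehyde-3-phosphate dehydrogenase and TEF2 a translation elongation factor, all of them abundant transcripts. Methylotrophic yeasts keep the genes for methanol oxidation low while glucose is plentiful.

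LA001-14 is a single strain. The effects of the cassettes, of the places where they lie and of any other change made while the strain was built therefore cannot be told apart. Sampling took place at 1 time, and the growth of the cultures, for which the labels give no value, was not tested. Apart from LDH, the deposited tables hold coding sequences under CB identifiers without gene names, so genes are described by level, coding length and response, and no pathway was counted. At most 2 identifiers are printed per direction, together with 1 gene that did not pass the test. The replicates are biological per the labels, which do not say whether each had a culture of its own, and p-values measure the spread among these libraries.

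Each table lists 5712 coding sequences, called genes below. Total counts ranged from 8045977 to 10350083 in LA-Glu and from 9171196 to 11004278 in WT-Glu, and 5239 genes had at least 10 reads in every glucose library. On glucose 5626 genes had a read in both strains. Another 13 genes besides LDH had reads in LA001-14 alone, with at most 38 reads summed over its 3 libraries. A further 21 had reads in wild type alone, with at most 18. At this depth the strains were therefore separated by levels, and by few genes seen in a single strain.

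The introduced gene comes first, since it checks the strain labels. LDH (coding length 999 bases) had 66727, 76402 and 67546 reads in the 3 LA-Glu libraries, against 0 reads in each WT-Glu library. In the authors' FPKM, which divide reads by coding length and library total, this was 7675, 7389 and 8403 in LA-Glu. LDH ranked 9 among all genes by mean FPKM in LA-Glu. It was at least 68329-fold higher in LA001-14, against a limit of 3 reads over the wild-type libraries (edgeR adjusted p = 2.88e-24). LDH reads therefore matched the strain label in all 6 glucose libraries, and of the 3 methanol libraries of wild type 1 held 1 LDH read.

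The strains differed far more than the replicates of either strain. The composition distance used here is the share of counts that lies on different genes in a pair of libraries, from 0% for identical profiles. Between an LA-Glu and a WT-Glu library it ranged from 17.5% to 21.2% over the 9 pairs. Within LA-Glu it ranged from 3.08% to 4.80%, and within WT-Glu from 2.81% to 7.30%. The median absolute log2 difference per gene was 0.41 to 0.50 between the strains, 0.11 to 0.16 within LA-Glu and 0.11 to 0.19 within WT-Glu.

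**Figure D1:**
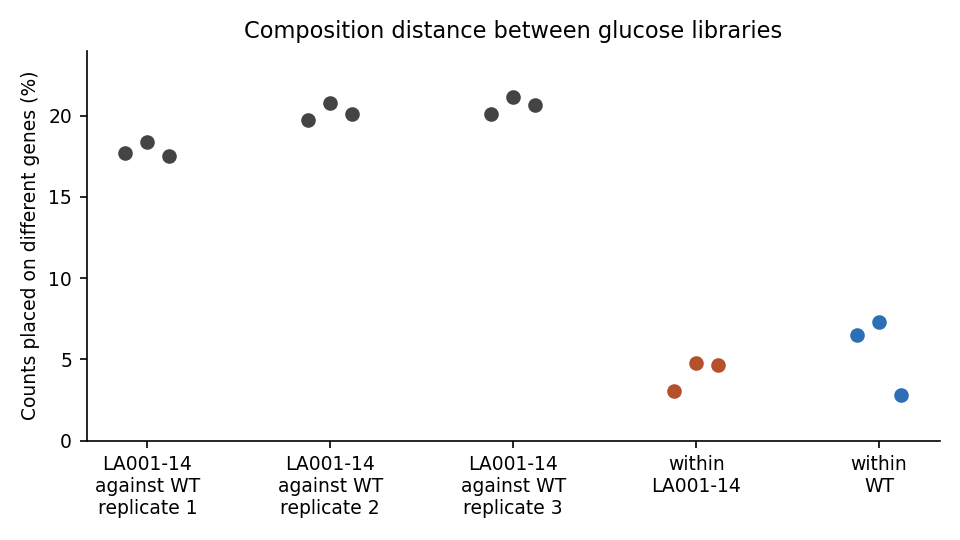
Share of counts that lies on different genes (%, vertical axis) for each pair of the 6 glucose libraries, 1 point per pair, with LA001-14 libraries against each wild-type library to the left and pairs within a strain to the right. All 9 pairs between the strains lie at 17.5% or above, and the 6 pairs within a strain at 7.30% or below.

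One wild-type library stood apart. WT-Glu replicate 1 lay 6.50% and 7.30% from the other wild-type libraries, which were 2.81% from each other. Replicate 1 was also nearest to LA001-14, at 17.5% to 18.4%, while replicates 2 and 3 lay at 19.7% to 21.2%. The common biological coefficient of variation was 0.101 in LA-Glu and 0.118 in WT-Glu, and 0.0713 in WT-Glu without replicate 1. The main counts that rest on wild type are also given without this library.

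LA001-14 differed from wild type in 3419 of 5466 genes tested on glucose (62.6%), mostly by less than 2-fold and in both directions alike. Of all tested genes 1689 (30.9%) were higher and 1730 (31.7%) lower in LA001-14 (edgeR quasi-likelihood test, adjusted p under 0.05). Of the 3419 called, 1429 changed by less than 1.5-fold. The rise was at least 2-fold for 419 genes (7.67%) and the fall at least 2-fold for 467 (8.54%). Large falls were more numerous than large rises: 37 genes other than LDH rose at least 4-fold and 96 fell that far, 10 and 35 passed 8-fold, and 6 and 17 passed 16-fold. Of these 37 genes 1 had no read in wild type, so its fitted fold is not a bound. For 3480 genes (63.7%) the 3 LA-Glu libraries did not overlap the 3 WT-Glu libraries, and this held for 3189 of the 3419 called and for 873 of the 886 called at 2-fold or more.

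The near balance of higher and lower genes rests on the scaling of the libraries. The TMM factors, which correct for composition, were 1.07 to 1.15 in LA-Glu and 0.90 to 1.03 in WT-Glu. The median log2 difference of all tested genes was 0.012 with TMM. Library totals with no such factor put it at 0.23, with 2335 genes higher (66.7% of calls) and 1168 lower, and with 697 higher and 318 lower by at least 2-fold. RLE scaling gave 1845 higher and 1593 lower (478 and 420 by at least 2-fold), and DESeq2 1858 and 1606 (477 and 423). Upper quartile scaling gave 1602 higher and 1800 lower (393 and 491). Directions of calls below hold for TMM scaling, relative to the middle of all genes. FPKM and shares of counts carry no TMM factor. Without WT-Glu replicate 1, 1841 genes were higher and 1589 lower, with 545 higher and 464 lower by at least 2-fold.

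**Figure D2:**
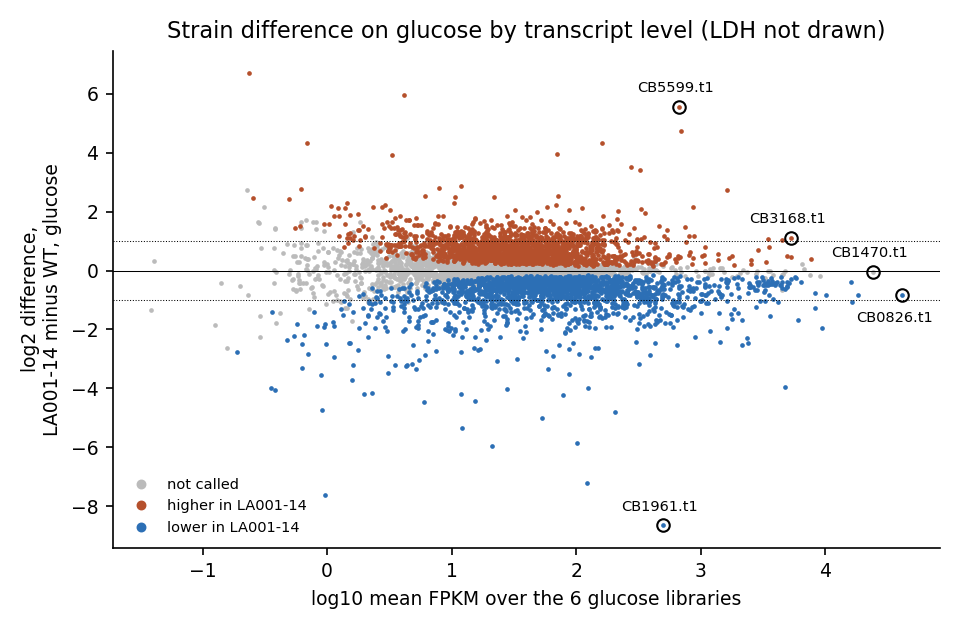
Log2 difference between LA001-14 and wild type on glucose (vertical axis) against the log10 of the mean FPKM over the 6 glucose libraries (horizontal axis), 1 point per tested gene other than LDH, with dotted lines at 2-fold and the 5 printed genes circled. Falls beyond 4-fold (96 genes) outnumber rises beyond 4-fold (37 genes), and the most abundant genes lie mostly below the zero line.

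Abundant transcripts were lower in LA001-14 more often than other transcripts. In 5 classes of equal size by mean FPKM over the 6 glucose libraries, the top class (107 FPKM and above, 1093 genes) had 609 genes lower (55.7%) and 268 higher (24.5%), with a median log2 difference of -0.30. In the class below it (47.4 to 107 FPKM) 384 were lower and 386 higher, and in the 3 classes under that the higher genes were more numerous, with 396 against 288, 388 against 242 and 251 against 207. The share of genes called ran from 41.9% in the lowest class to 80.2% in the top class, and the depth behind each gene runs the same way. Lower genes remained more numerous than higher ones in the top class in each of the 13 alternative settings, with 481 lower and 389 higher with library totals and 607 and 281 without WT-Glu replicate 1. On methanol the same top class had 433 genes higher and 439 lower in LA001-14, with a median of -0.03.

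Among the 20 genes with the most counts on glucose, 11 were lower, 5 higher and 4 not called in LA001-14. Their log2 differences ranged from -1.67 to 1.11 with a median of -0.50, and 5 fell and 1 rose by at least 2-fold. Together they took 21.0% ± 1.04 of the counts in LA-Glu and 24.5% ± 1.71 in WT-Glu (SD, n = 3 each). The 100 genes with the highest mean FPKM in LA-Glu and the 100 highest in WT-Glu had 86 genes in common.

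Lower calls outnumbered higher ones among short coding sequences, and higher calls outnumbered lower ones among long ones. In 4 classes by coding length, the shortest (156 to 897 bases, 1371 genes) had 240 genes higher (17.5%) and 572 lower (41.7%), with a median log2 difference of -0.21. The longest (2274 to 15030 bases, 1363 genes) had 536 higher (39.3%) and 351 lower (25.8%), with a median of 0.11. The medians differed by -0.32, which any common scaling leaves nearly as it is (-0.33 to -0.32 over the 7 settings that kept all glucose libraries), and by -0.40 without WT-Glu replicate 1. Genes that rose at least 2-fold had a median coding length of 1632 bases and genes that fell at least 2-fold 1179 bases.

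**Figure D3:**
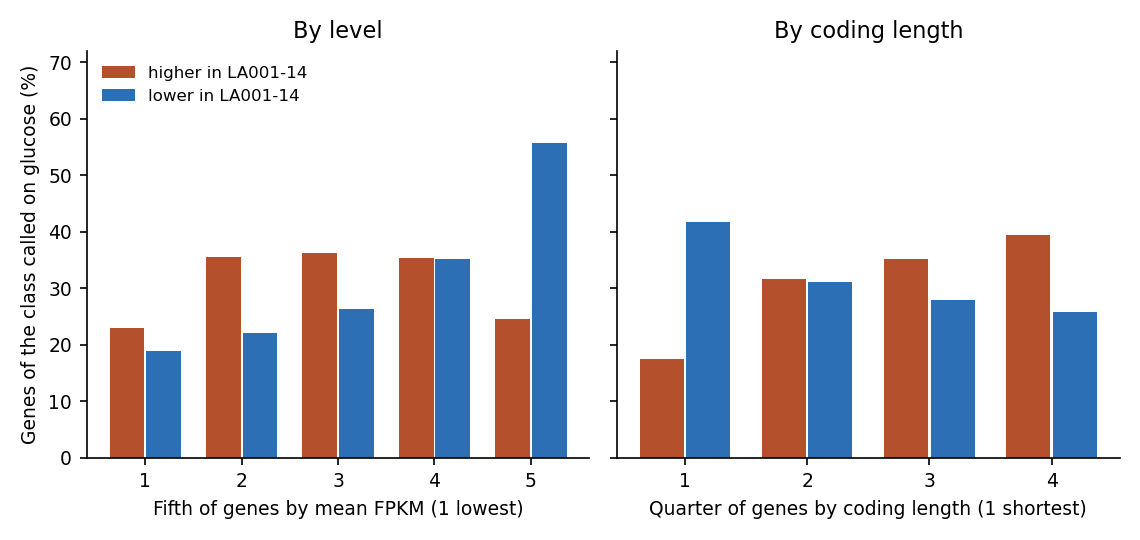
Share of genes called higher (left bar) and lower (right bar) in LA001-14 than in wild type on glucose (%, vertical axis), in 5 classes by mean FPKM and 4 classes by coding length. Lower calls reach 55.7% in the most abundant class and 41.7% in the shortest class, and higher calls are most frequent, at 39.3%, in the longest class.

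Coding length and level go together, since the median coding length was 978 bases in the top FPKM class and 1695 bases in the lowest. Within each of the 5 FPKM classes the shortest coding sequences still had a lower median difference than the longest. The gap was -0.087 in the lowest class and -0.47 in the top class. In the top class the median log2 difference was -0.47 for the 502 shortest coding sequences and -0.0054 for the 91 longest. In the 4 classes below, from the lowest up, the median of the longest was 0.10, 0.11, 0.13 and 0.13. That of the shortest was 0.017, -0.030, -0.11 and -0.13. The top class thus had the lowest median among long and among short coding sequences, with the larger drop among the short ones. The same balance, taken in each library as the median log2 deviation of the shortest class minus that of the longest, was -0.15, -0.29 and -0.061 in LA-Glu, against 0.013, 0.26 and 0.25 in WT-Glu. The groups did not overlap, although the nearest libraries of the 2 strains were closer than some replicates, and the exact two-sided permutation test gave p = 0.1, the smallest that 3 libraries against 3 allow. WT-Glu replicate 1 was again the wild-type library nearest to LA001-14. The balance also moved between replicates, by 0.035 to 0.22 between libraries of 1 strain, and by 0.075 to 0.56 between the strains. On methanol it was 0.12, -0.11 and -0.050 in LA-Met, against 0.41, 0.40 and 0.47 in WT-Met (exact p = 0.1). The part of this length balance in the strain differences of single genes was not tested.

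Seen as reads, 19.2% of the counts lay on different genes in the averaged LA001-14 and wild-type profiles. On this scale of library totals 3585 genes gained and 2076 lost. The loss was concentrated and the gain spread out: 33 genes carried 50% of what LA001-14 lost, while 115 carried 50% of what it gained. The 10 genes that lost most gave up 6.19 percentage points, and all 10 were called lower. The 10 that gained most took 3.64 points, of which LDH took 0.781, and 9 of them were called higher. LDH was 4.08% of the whole gain. Leaving LDH out gave a redistributed share of 18.8%, leaving out the 20 genes with most counts 19.5%, and leaving out WT-Glu replicate 1 20.2%.

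Of the native genes, 4 were named by a rule, 2 per direction: the largest log2 difference and the largest difference in CPM, among called genes whose mean over the glucose libraries reached 50 counts and whose strains did not overlap. That the strains did not overlap on glucose was thus fixed by the choice of these 4 genes. CB5599.t1 (coding length 1524 bases) had the largest rise by that rule. It stood at 1255, 1289 and 1360 FPKM in LA-Glu, against 28.7, 20.5 and 22.6 FPKM in WT-Glu. Every LA001-14 library lay far above every wild-type library, and the log2 difference was 5.55 (SE 0.10, edgeR adjusted p = 2.60e-17). By mean FPKM CB5599.t1 ranked 125 in LA-Glu and 3076 in WT-Glu. On methanol the order was the other way round, with 245, 284 and 254 FPKM in LA-Met, against 560.3, 674 and 439 FPKM in WT-Met (log2 difference -1.38, SE 0.19, adjusted p = 1.96e-09).

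CB3168.t1 (1080 bases) gained the most CPM among the native genes that the rule considers. It stood at 7746, 7535 and 7381 FPKM in LA-Glu, against 2686, 3010 and 3256 FPKM in WT-Glu. The groups were well apart and the log2 difference was 1.11 (SE 0.15, edgeR adjusted p = 1.21e-09). With these levels CB3168.t1 stood beside LDH among the most abundant transcripts of LA001-14, at rank 11 by mean FPKM, and at rank 77 in wild type. On methanol it was lower in LA001-14, at 1289.5, 1177 and 1204 FPKM in LA-Met, against 3068, 3303 and 3260.3 FPKM in WT-Met (log2 difference -1.67, SE 0.074, adjusted p = 7.73e-13).

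CB1961.t1 (1116 bases) had the largest fall. It stood at 2.68, 2.34 and 3.79 FPKM in LA-Glu, on 26, 27 and 34 reads, against 862, 1049 and 1042.5 FPKM in WT-Glu. The transcript was thus close to the bottom of the LA001-14 profile and among the more abundant of wild type, at ranks 5118 in LA-Glu and 176 in WT-Glu by mean FPKM, with a log2 difference of -8.64 (SE 0.24, edgeR adjusted p = 2.65e-20). On methanol CB1961.t1 was a little higher in LA001-14, at 193, 168 and 177 FPKM in LA-Met, against 98.5, 99.7 and 109 FPKM in WT-Met (log2 difference 0.53, SE 0.096, adjusted p = 0.000184).

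CB0826.t1 (1002 bases) lost the most CPM and was the gene with the highest mean FPKM in both strains on glucose. It stood at 35089, 33043 and 30290 FPKM in LA-Glu, against 43300, 52501 and 53937 FPKM in WT-Glu. The groups did not overlap, as the rule required, though the lowest wild-type value belongs to replicate 1. The log2 difference was -0.83 (SE 0.18, edgeR adjusted p = 1.72e-06). On methanol CB0826.t1 was higher in LA001-14, at 16528, 14232 and 15591 FPKM in LA-Met, against 8459, 8180 and 8395 FPKM in WT-Met (log2 difference 0.61, SE 0.090, adjusted p = 7.88e-05). All 4 of these native genes therefore had opposite strain differences on glucose and on methanol. They were chosen for the largest differences on glucose and do not stand for the larger sets. Of the 418 native genes at least 2-fold higher on glucose, 26.8% had the opposite call on methanol and 46.2% the same. For the 467 genes at least 2-fold lower these shares were 21.6% and 53.3%.

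CB1470.t1 (1383 bases), chosen after its values were seen because it took the most counts in LA-Glu, did not pass the test. It stood at 27232, 25431 and 23713 FPKM in LA-Glu, against 21919, 22405 and 22938 FPKM in WT-Glu. FPKM carries no correction for composition. With TMM the groups overlapped, and the log2 difference was -0.04 (SE 0.12, edgeR adjusted p = 0.77). Its sign turned with the scaling: with library totals the difference was 0.18 and passed the test (adjusted p = 0.00567).

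**Figure D4:**
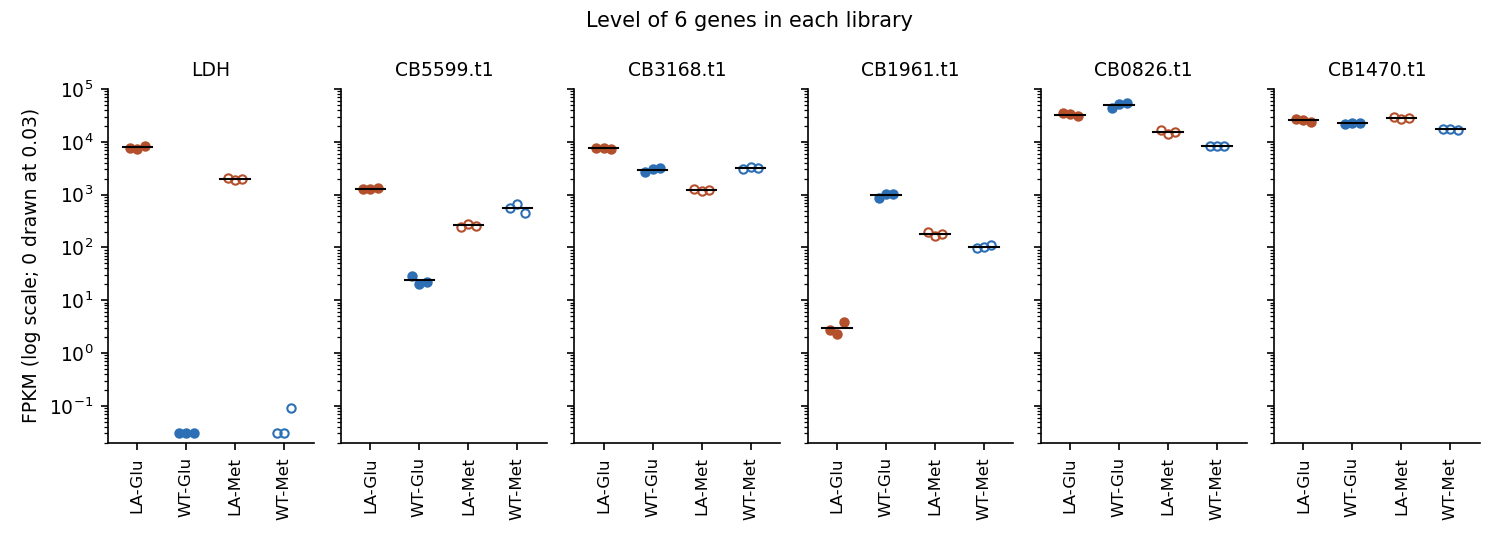
FPKM (log scale, vertical axis) of 6 genes in each of the 12 libraries, 1 point per library, LA001-14 in red and wild type in blue, filled on glucose and open on methanol, with a line at the mean where no library is at 0; a value of 0 is drawn at 0.03. CB5599.t1 and CB3168.t1 are higher and CB1961.t1 and CB0826.t1 lower in LA-Glu than in WT-Glu, and each has the opposite order between LA-Met and WT-Met.

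The glucose differences were then read in the methanol libraries, which lie outside the glucose contrast. All 12 libraries nevertheless entered the choice of genes tested, the scaling and 1 estimate of spread. With the glucose libraries alone 5415 genes were tested, with 414 higher and 449 lower by at least 2-fold. On methanol 65.7% of all tested genes were called between the strains, 9.73% at least 2-fold higher and 11.1% at least 2-fold lower in LA001-14. Of the 418 native genes at least 2-fold higher in LA001-14 on glucose, 193 (46.2%) were called higher on methanol, where 32.8% of all tested genes were. Another 112 (26.8%) were called lower, where 32.9% of all were, and 113 were not called. The difference reached 2-fold on methanol for 94 of the 193 and for 66 of the 112. Of the 467 genes at least 2-fold lower on glucose, 249 (53.3%) were called lower on methanol, 101 (21.6%) higher and 117 were not called. Here 127 of the 249 and 36 of the 101 reached 2-fold. These counts move with the scaling: with library totals 404 of 697 genes at least 2-fold higher on glucose, LDH included, were called higher on methanol, and 141 of 318 at least 2-fold lower were called lower. Which set was more often called in the same direction on methanol thus turned with the scaling. Without WT-Glu replicate 1, 277 of 545 genes, LDH included, were called higher on methanol, against 194 of 419 with all libraries. The shares of all tested genes called on methanol were not recomputed with library totals or without this library. Whether these counts moved more than those of all genes was therefore not tested. The median log2 difference of the higher set was 1.23 on glucose and 0.29 on methanol, and that of the lower set -1.44 and -0.43. Over all tested genes the medians were 0.012 and 0.0048.

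Of the 37 native genes at least 4-fold higher on glucose, 13 (35.1%) were called higher and 14 (37.8%) lower on methanol, shares near those of all tested genes, 32.8% and 32.9%, and their median there was 0.12. Of the 96 at least 4-fold lower, 54 (56.2%) were called lower and 19 (19.8%) higher, with a median of -0.85. Of the 2047 genes not called on glucose, 1176 were called on methanol. Of the 2047, 560 (27.4%) were higher and 616 (30.1%) lower there, smaller shares than among all tested genes (32.8% and 32.9%).

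**Figure D5:**
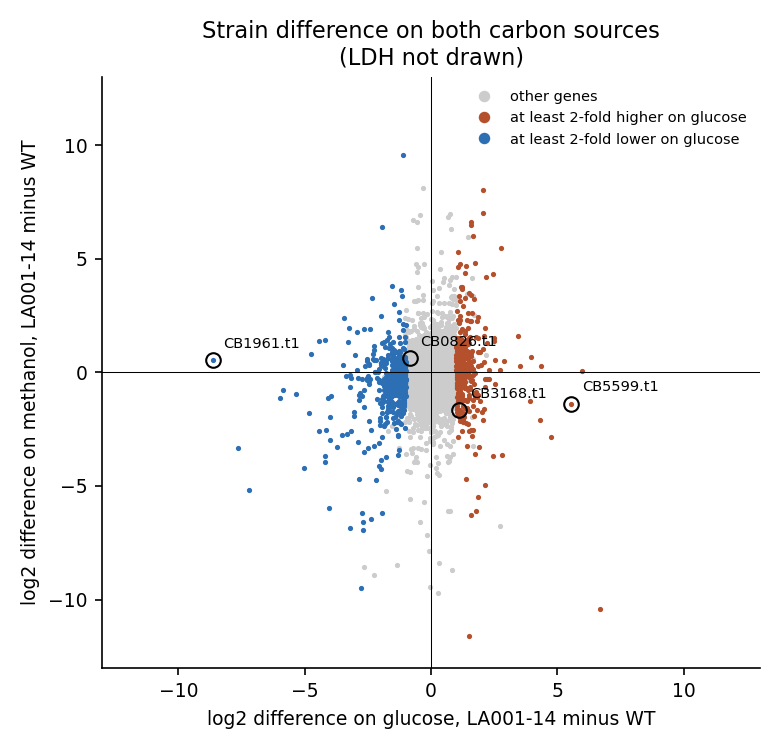
Log2 difference between LA001-14 and wild type on methanol (vertical axis) against that on glucose (horizontal axis), 1 point per tested gene other than LDH, with genes at least 2-fold different on glucose in colour and the 4 native genes named by the rule circled. Of the 418 genes at least 2-fold higher on glucose 193 were called higher and 112 lower on methanol, and the circled genes lie in the quadrants of opposite sign.

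The change in the strain difference between the carbon sources was tested itself. It passed for 670 of the 886 genes at least 2-fold different on glucose, while 58.7% of all tested genes passed (edgeR, adjusted p under 0.05). Without WT-Glu replicate 1 it passed for 742 genes, from a larger set of 545 higher and 464 lower by at least 2-fold. The share of all tested genes that passed was not recomputed without that library. The higher set held 283 genes whose strain difference was greater on glucose than on methanol and 35 with the opposite order. In the lower set it was more negative on glucose for 319 and less negative or positive for 33. The genes were chosen on glucose libraries that this test also uses, which favours a larger difference there.

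As shares of counts, the same sets showed how few genes can decide a sum. The 418 native genes that rose took 8.37% ± 0.113 of the counts in LA-Glu and 2.75% ± 0.144 in WT-Glu. On methanol they took 4.46% ± 0.091 in LA-Met and 10.7% ± 0.258 in WT-Met (SD, n = 3 each, exact two-sided permutation p = 0.1, the smallest possible). The sum on methanol was therefore higher in wild type although more of these genes were called higher in LA001-14, and 10 of the genes held 7.31 of the 10.7 points in WT-Met. The 467 genes that fell took 6.90% ± 0.141 of the counts in LA-Glu and 16.5% ± 0.433 in WT-Glu. On methanol they took 11.0% ± 0.203 in LA-Met and 21.1% ± 0.049 in WT-Met (exact p = 0.1), of which 10 genes held 14.1 points in WT-Met.

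The CB identifiers are numbered in sequence, though the sources used here do not say whether the numbers follow the chromosomes. Across 5271 pairs of consecutive identifiers, the log2 differences correlated weakly, with r = 0.10, as a description of genes that share all libraries. When a gene was at least 2-fold higher on glucose the next one was too in 13.3% of cases, against 7.67% of all genes, and for lower genes in 14.4%, against 8.54%. The median over 40 consecutive identifiers stayed between -0.46 and 0.52, and the longest run of genes all at least 2-fold higher was 5 and all at least 2-fold lower 4.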

How the data were processed

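Total RNA went through a Trizol extraction and a column clean-up with DNase I, per the labels' protocols. The submitters' processing notes name Bowtie2 2.5.4. How reads were counted, whether strand was used, and which build and annotation served is not given in the sources used here. The deposited raw counts are whole reads per coding sequence, per the file headers. The deposited FPKM equal these counts divided by coding length and library total, to within 2.4e-06 percent.

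Counts entered edgeR 4.0.16 (R 4.3.3). Its filterByExpr kept 5466 genes and removed 246. TMM scaling was followed by the quasi-likelihood test, with the 4 groups as means and all 12 libraries in the fit, tested on simulated data. In the simulated data few genes changed, with rises and falls alike in number. They therefore cannot test the scaling where most genes are called. Called means a p under 0.05 after Benjamini-Hochberg adjustment over all tested genes. Standard errors use log2 CPM after adding 2 reads and the spread among replicates. DESeq2 1.42.0, other scalings, no filter, a replicate block, the glucose libraries alone and left-out libraries were alternatives. Replicates of each strain differed by more than counting noise. Limits for a count of 0 cover counting error only. Members, lists, naming rule and alternatives were chosen with earlier results of these data known, and the classes by level and length were added after the data were seen. The naming rule took, per direction, the largest log2 and the largest CPM difference. Gene names and sequences were not used here, so the pathway lists were not counted.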

Additional observations from a re-analysis of the deposited data

Results flagged for a closer look

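Each result here was picked out because the strain difference on glucose differed from that on methanol in a test of the difference itself (edgeR, adjusted over all genes tested). That test passed for 670 of the 886 genes at least 2-fold different on glucose, beside 58.7% of all tested genes. The log2 strain difference on glucose minus that on methanol was 6.93 for CB5599.t1 (adjusted p = 1.97e-17), 2.78 for CB3168.t1 (adjusted p = 3.60e-14), -9.17 for CB1961.t1 (adjusted p = 1.08e-19) and -1.44 for CB0826.t1 (adjusted p = 8.65e-08). For CB1470.t1 it was -0.47 (adjusted p = 0.00649). The genes at least 2-fold different and the native genes named by the rule were chosen on glucose libraries that this test also uses. CB1470.t1 was chosen by its counts in LA-Glu. For the genes chosen by their strain difference, the choice favours a larger difference on glucose, and their adjusted p-values are not free of it. With 3 libraries in each group, single outlying libraries were not tested for.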

How the results depend on the processing

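With library totals in place of TMM, 697 genes were at least 2-fold higher on glucose, 404 of the genes at least 2-fold higher were also called higher on methanol, and 141 of those at least 2-fold lower were also called lower there. The cause was not tested, and the shares of all tested genes called on methanol were not recomputed with library totals. The other counts recomputed stayed within 1.5 times their values: genes higher, lower and at least 2-fold lower on glucose, higher and lower genes of the top FPKM class, and genes whose strain difference differed between carbon sources. Higher calls on glucose outnumbered lower ones with RLE scaling, DESeq2, library totals and without WT-Glu replicate 1, but not in the other settings. Counts past 4-fold and beyond, of coding-length classes and of the top 20 genes were not recomputed. For LDH, no direction or call changed, and the 4 native genes named by the rule kept their direction and their call. The sign of CB1470.t1, which was not called, turned to 0.012 with RLE scaling and with DESeq2, 0.18 with library totals, 0.033 without LA-Glu replicate 3 and 0.023 without WT-Glu replicate 3. Leaving out 1 glucose library at a time gave 1535 to 1841 genes higher and 1589 to 1720 lower. The labels do not say whether the replicate numbers pair the libraries. Deviations of same-numbered LA-Glu and WT-Glu libraries correlated at -0.13, 0.012 and -0.12, and those of different numbers at -0.022 to 0.14. Deviations from the means of so few libraries cannot show whether a pairing exists. A fit with the replicate block called 1645 genes higher and 1684 lower, and no call of a named gene changed under it. In the lowest class by level, where reads per gene are fewest, 41.9% of genes were called; the part of depth in that share was not tested.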
